A study of Mus musculus with 72 samples.

Results

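H3K27ac, the acetylation of lysine 27 on histone H3, was mapped by CUT&RUN in mouse CD8+ T cells activated for 48 h in medium without glutamine and in vehicle cultures with glutamine. The comparison rests on 4 of the 72 samples of the series, 2 for each condition, chosen by their labels and by the peak list deposited for each condition. The cells were OT-I cells, which carry a transgenic receptor for SIINFEKL, a peptide of ovalbumin. Both groups were splenocyte cultures with red cells lysed, activated with SIINFEKL at 10 ng/mL and recombinant human IL-2 at 100 IU/mL, in RPMI with or without glutamine. The labels do not name a sorting step, an age or a sex. Solvents of the inhibitors used elsewhere in the series, such as DMSO and PBS, served as vehicle, and the labels do not say which of them a vehicle sample received or whether glutamine-free cultures received any. RNA-seq of the same conditions and time, with 4 libraries in each, and the H3K27me3 peak lists were read as further measures of the same genes and peaks. The labels do not say that replicates came from separate mice or cultures, so the p-values reflect only how these samples vary, and that variation may be technical.

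H3K27ac is laid down by the acetyltransferases p300 and CBP from acetyl-CoA, and marks active promoters and active enhancers. H3K27me3, the trimethylation of the same lysine by Polycomb repressive complex 2, marks silenced genes, and one lysine cannot carry both. Glutamine feeds the TCA cycle and nucleotide synthesis in dividing T cells, and its loss is sensed through amino acid deprivation signalling and the transcription factor ATF4.

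The vehicle list held 9681 H3K27ac peaks and the list without glutamine held 6687, which is 69.1% as many. The peaks without glutamine were wider, with a median of 2244 bases against 1974, and 188 of them (2.81%) were longer than 10000 bases against 134 (1.38%) in vehicle. The genome covered was therefore closer between the conditions than the peak number, 20.21 Mb without glutamine and 24.65 Mb in vehicle, or 82.0%. Each list is 1 merged list of 2 samples kept by the authors at an irreproducible discovery rate (IDR) of 0.05, so the difference in length has no replicate check. The read depth of these libraries is not given in the sources used here. A peak that is missing from a list was not shown to lack acetylation. A peak's signal is the authors' own value on a scale not given in the sources used here, and served only to rank peaks within a list.

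Most peaks found without glutamine were also vehicle peaks, and weaker and narrower vehicle peaks were missing more often than stronger and wider ones. Of the vehicle peaks, 5350 (55.3%, exact 95% interval 54.27 to 56.26, counting error only) were overlapped by at least 1 base by a peak without glutamine, and 4331 were alone. Of the peaks without glutamine, 5175 (77.4%, 76.37 to 78.39) met a vehicle peak and 1512 were alone. The lists differ in length, and most shared loci hold 1 peak of each, so these 2 shares must differ. With the 6687 strongest vehicle peaks in place of all, 62.8% of vehicle peaks and 61.8% of peaks without glutamine met a peak of the other list, as equal lengths nearly require. Each list was split into 5 equal bins by signal or by width. The share of vehicle peaks kept was 35.5% in the bin of lowest signal and 80.2% in the bin of highest signal, and 31.3% in the narrowest bin against 79.5% in the widest. Without glutamine the corresponding shares were 66.3% and 90.5% by signal, and 62.5% and 91.6% by width.

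**Figure D1:**
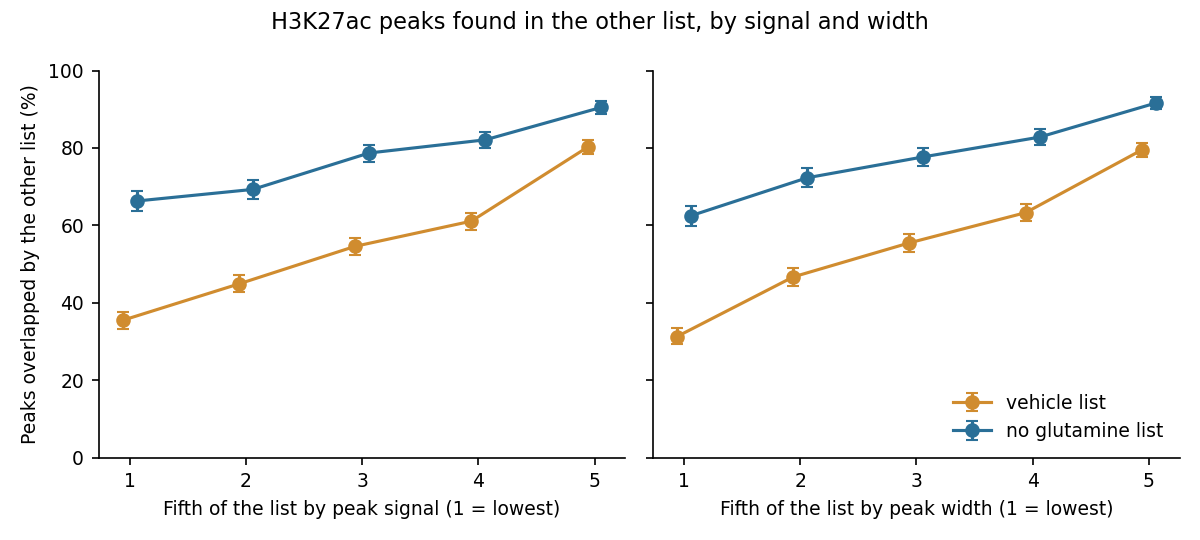
Share of peaks overlapped by the other list (percent, vertical axis) in 5 equal bins of each list ranked by peak signal (left) or peak width (right), with exact 95% intervals for counting error. The overlapped share climbs from 35.5% to 80.2% across the signal bins of the vehicle list and from 66.3% to 90.5% across those of the list without glutamine.

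Widths at shared loci were balanced at the median and varied in both directions. The lists joined into 10902 separate loci, of which 5060 held peaks of both, 4330 only vehicle peaks and 1512 only peaks without glutamine. At the 4735 loci with 1 peak from each list, the median width was 2275 bases in vehicle and 2322 without glutamine, and the median log2 ratio of widths was 0.03 (quartiles -0.40 and 0.43). Among these, 388 were more than 2-fold wider and 384 more than 2-fold narrower without glutamine. At 216 loci several vehicle peaks lay under 1 peak without glutamine, against 82 loci with the reverse. The median distance from a lone peak to the nearest peak of the other list was 41894 bases in vehicle and 19299 bases without glutamine.

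Several of the widest peaks lay at genes of T cell identity, and all of the 5 widest of each list met a peak of the other. The widest vehicle peak, chr14:54193247-54234149 on the mm10 build, covered 40903 bases of the joining segments of the T cell receptor alpha locus. Without glutamine a single peak of 81956 bases (chr14:54152775-54234730) spanned the same locus and met 4 vehicle peaks. Within Ets1, a transcription factor of lymphocytes, a vehicle peak of 33799 bases (chr9:32695096-32728894) began 58875 bases from the outermost start. It had the highest signal of its list, 32.43, made of 27.85 in 1 sample and 4.58 in the other, and it met a peak of 54847 bases without glutamine (chr9:32695031-32749877). The peak in Bcl11b, a transcription factor that maintains T cell identity, was 24318 bases wide in vehicle and met 4 peaks without glutamine. Ets1 RNA did not pass the test (log2 change -0.06, SE 0.09, adjusted p = 0.57), although without the vehicle library C, which stood apart from the other vehicle libraries, it did (-0.18, adjusted p = 0.00103). RNA of Bcl11b rose without glutamine (log2 change 1.01, SE 0.05).

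Peaks found only without glutamine lay away from promoters more often than peaks found only in vehicle. A promoter peak is one within 1000 bases of the outermost annotated start of a gene, and the remaining peaks were assigned to exons, introns or intergenic sequence in that order. Promoter peaks made up 58.5% of the vehicle list (57.50 to 59.47) and 57% of the list without glutamine (55.76 to 58.15). Among the lone peaks they made up 55% in vehicle and 35.9% without glutamine. Introns held 31.0% of the lone peaks without glutamine and 20.0% of the lone vehicle peaks. Put the other way, 85.7% (84.59 to 86.84) of the promoter peaks without glutamine were vehicle peaks too, against 62.0% (59.27 to 64.76) of its intronic and 66.2% (62.66 to 69.71) of its intergenic peaks. In vehicle the same shares were closer, 57.9% at promoters, 50% in introns and 50.4% between genes. Within each of the 5 bins of width the promoter peaks without glutamine were still overlapped more often than its other peaks, by 76.0% against 46.7% in the narrowest bin and 94.5% against 88.3% in the widest.

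**Figure D2:**
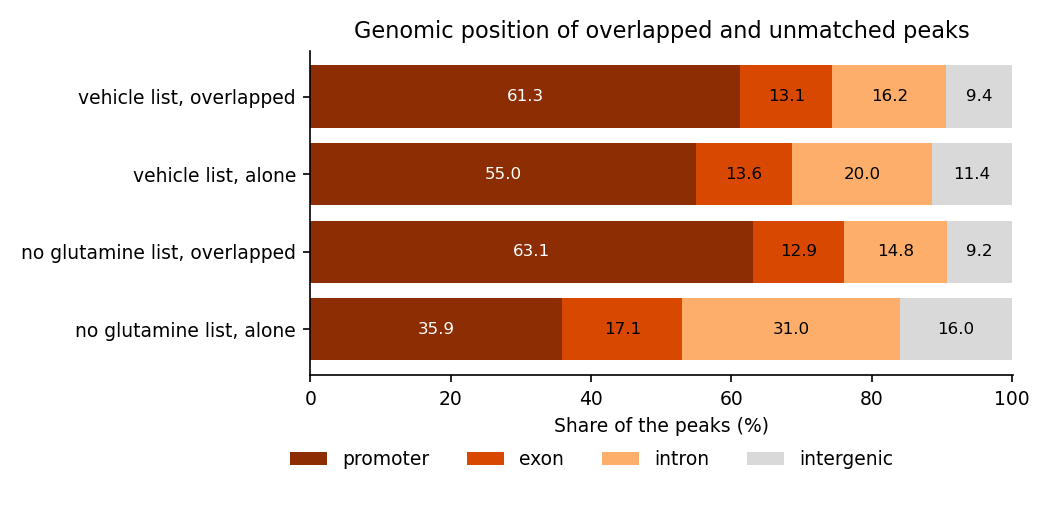
Genomic position (percent of peaks, horizontal axis) of the overlapped and the lone peaks of each list, as promoter, exon, intron or intergenic. Promoters hold 35.9% of the lone peaks without glutamine and 55 to 63.1% of the other sets.

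Of the 12 strongest lone peaks, 6 in each list, 8 had signals that differed by more than 2-fold between the 2 samples. Of the 6 strongest lone vehicle peaks, the one over the start of Tnfaip8 (chr18:49978922-49987362, a regulator of cell death) had signals of 19.91 and 4.60, and the one nearest to Sik1, a salt-inducible kinase (chr17:31833130-31849457), 4.09 and 15.77. Of the 6 strongest lone peaks without glutamine, the one in an exon nearest to Arpc2 (chr1:74242420-74252006, a subunit of the actin-nucleating ARP2/3 complex) had 12.66 and 4.29, while the one over the start of Taf6 (chr5:138186974-138187900, a subunit of the general transcription factor TFIID) had 10.91 and 9.21. The lone vehicle peak in an exon nearest to Kbtbd11 (11.02 and 10.71) and the intronic lone peak nearest to Ablim1 (12.48 and 7.68) were also within 2-fold, as was the lone vehicle peak nearest to Slc6a19 (7.99 and 11.55). Across a list the signals of the 2 samples ranked the peaks almost independently (Spearman 0.06 over 9681 vehicle peaks and 0.08 over 6687 without glutamine, a description, since each peak had passed the same selection), although 93.7% and 93.1% of peaks lay within 2-fold. RNA of Tnfaip8 fell (log2 change -0.68, SE 0.06). RNA fell for the microtubule end-binding gene Mapre2 (-1.35, SE 0.07), whose start lay 50557 bases from a lone vehicle peak. It also fell for the actin crosslinker gene Actn4 (-0.42, SE 0.06), whose start lay 9962 bases from one. The peak nearest to Actn4 was a promoter peak of another gene, which was not tested. The values were 0.32 (SE 0.08, a rise) for Kbtbd11 and 0.07 (adjusted p = 0.314) for Sik1. Beside lone peaks without glutamine, Arpc2 RNA fell (-0.15, SE 0.05, adjusted p = 0.0111), a call lost with library totals alone (-0.05, adjusted p = 0.402), and Taf6 (-0.06, adjusted p = 0.369) and Ablim1 (0.02, adjusted p = 0.766) did not pass the test.

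RNA was lower more often than higher at promoters with a peak in vehicle only, and higher more often than lower at promoters with a peak only without glutamine or in both lists. Of 16173 genes tested, 4528 (28.0%) were higher and 4249 (26.3%) lower without glutamine at an adjusted p under 0.05. With scaling by library totals alone the split was 5607 higher and 3216 lower, with the log2 changes moved up by 0.101 at the median. Of the 2797 tested genes with a promoter peak in vehicle only, 26.4% were higher and 32.6% lower. Of the 630 with a promoter peak only without glutamine, 36.0% were higher and 25.7% lower, and of the 3999 with a promoter peak in both lists, 33.7% were higher and 24.8% lower. These differences between classes were not tested. The median log2 changes were -0.036, 0.078 and 0.062 in that order, against 0.022 over all genes tested, which is small beside the quartiles of each class (-0.297 and 0.266 for vehicle only). With library totals alone the shares higher and lower were 34.7% and 24.2% for vehicle only, 43.2% and 17.6% for no glutamine only and 41.6% and 17.4% for both lists, so that under this scaling genes of the vehicle-only class were higher more often than lower.

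The larger changes differed more between the classes. A rise of at least 2-fold that passed the test was found in 10.0% of genes with a promoter peak only without glutamine, 2.57% of those with one only in vehicle and 6.69% of all tested genes. A fall of at least 2-fold was found in 1.43%, 2.82% and 4.62%. With a promoter peak in both lists the shares were 4.98% for rises and 1.23% for falls. With a peak in neither list they were 8.55% and 6.97%, so the share of rises was not far from the 10.0%. Genes with no promoter peak in either list, 8747 of those tested, held most of the large changes, 748 of 1082 rises and 610 of 747 falls. Their median level in vehicle, per kilobase of exon, was 1.24 CPM (scaled counts per 1e6) per kb against 9.26 for genes with a promoter peak in both lists. By distal peaks, 37.8% of the 590 genes nearest to a distal lone peak without glutamine, and to no distal lone vehicle peak, were higher and 20.5% lower, against 27.6% and 31.0% of the 1336 genes with the reverse. Genes whose distal peaks were all shared, 848 of them, were close to the first of these, with 36.6% higher and 23.5% lower.

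**Figure D3:**
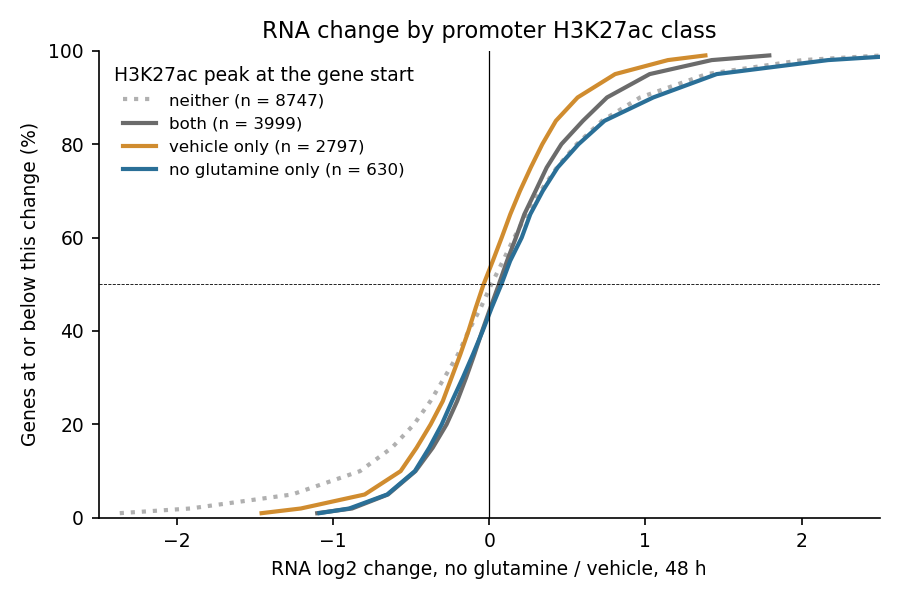
Cumulative share of tested genes (percent, vertical axis) at or below each RNA log2 change without glutamine (horizontal axis), by the presence of an H3K27ac peak at the gene start. The curve for vehicle-only promoters lies left of the curves for both lists and for no glutamine only, with medians of -0.036, 0.062 and 0.078.

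Genes of the amino acid response, which ATF4 induces when amino acids run short, had a promoter peak only without glutamine at 5 of 40 members, against 3.9% of all tested genes. Of the 40, 37 were higher and 2 lower, against 28.0% and 26.3% of all tested genes, with a median log2 change of 1.025. Promoter peaks were in both lists at 17, in vehicle only at 7, without glutamine only at 5 and in neither at 11. Over all tested genes these shares were 24.7%, 17.3%, 3.9% and 54.1%. Of the 24 members with a vehicle promoter peak 17 (70.8%) kept one, against 58.8% over all tested genes. The 5 were Asns, the asparagine synthetase that uses glutamine as nitrogen donor, Slc7a3, a transporter of cationic amino acids, Pck2, the mitochondrial phosphoenolpyruvate carboxykinase, Chac1, a glutathione-degrading enzyme, and Wars, the tryptophanyl-tRNA synthetase. All 5 rose. RefSeq promoter windows (GRCm38.p6, the same assembly as mm10) were at hand for Asns, Pck2 and Chac1, and the 250 bases before each start are shown because each start lay in a lone peak. Capitals mark the letters TGATGNAAN on either strand, a form of the C/EBP-ATF composite site that ATF4 is known to bind.
Asns, chr6:7693210-7693459, minus strand: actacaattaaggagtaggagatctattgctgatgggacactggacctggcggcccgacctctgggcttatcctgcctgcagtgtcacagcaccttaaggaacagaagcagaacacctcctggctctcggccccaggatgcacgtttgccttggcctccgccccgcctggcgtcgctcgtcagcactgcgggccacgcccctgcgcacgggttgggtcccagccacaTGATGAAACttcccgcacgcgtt
Pck2, chr14:55540016-55540265, plus strand: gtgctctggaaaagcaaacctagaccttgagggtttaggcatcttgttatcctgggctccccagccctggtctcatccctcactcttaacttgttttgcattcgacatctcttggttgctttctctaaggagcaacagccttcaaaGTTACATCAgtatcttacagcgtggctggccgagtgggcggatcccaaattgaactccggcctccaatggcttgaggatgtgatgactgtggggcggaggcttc
Chac1, chr2:119350992-119351241, plus strand: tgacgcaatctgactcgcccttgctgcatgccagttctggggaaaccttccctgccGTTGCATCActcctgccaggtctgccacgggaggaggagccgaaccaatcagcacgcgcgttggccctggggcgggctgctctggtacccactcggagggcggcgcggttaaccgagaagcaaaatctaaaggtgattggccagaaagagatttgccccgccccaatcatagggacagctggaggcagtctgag
The letters were in all 3 of these windows, in 3 of the 16 genes with windows among members with peaks in both lists, in 3 of 8 with a peak in neither list (Atf3, Nupr1 and Slc7a11), in 1 of 4 with one in vehicle only (Iars), and in 3.96% of all 32817 windows of 300 bases. Among all windows whose peak was found only without glutamine the share was 3.82%, close to that of all windows.

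At 4 of the 5 genes RNA rose more than 3-fold, and their lone peaks had signals of 9.24 to 12.52. Wars rose least (log2 change 0.28, SE 0.05). The Asns peak (chr6:7692141-7693392) had a signal of 9.24, summed from 4.14 and 5.10 in the 2 samples, against a list median of 9.80. Asns RNA was 77.2, 78.9, 69.7 and 83.0 CPM in vehicle libraries A to D and 408, 418, 407 and 402 CPM without glutamine. Every library without glutamine exceeded every vehicle library, with a log2 change of 2.40 (SE 0.09, adjusted p = 4.94e-13). The Slc7a3 peak (chrX:101084387-101085459, signals 4.55 and 4.75) began 561 bases inside the gene from its start. Slc7a3 RNA went from 10.6, 13.4, 9.82 and 12.6 CPM to 125, 124, 127 and 124 CPM, a log2 change of 3.43 (SE 0.12). The Pck2 peak (chr14:55539264-55541633) had signals of 7.06 and 5.46, and Pck2 RNA went from 39.6 to 55.3 CPM in vehicle to 315 to 355 CPM (log2 change 2.80, SE 0.12). The Chac1 peak (chr2:119350269-119351441) had signals of 4.68 and 6.55, and its RNA went from 5.38 to 7.04 CPM to 19.7 to 22.8 CPM (log2 change 1.79, SE 0.19). None of these groups of libraries overlapped.

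Many members rose with no listed peak at the start, or with 1 in both lists. The 11 members with a promoter peak in neither list held 10 that rose, among them Aldh1l2 (log2 change 4.48, SE 0.17), Nupr1 (3.58, SE 0.16), Cth (3.47, SE 0.14), Slc7a11 (3.43, SE 0.20) and Slc6a9 (3.29, SE 0.13). The stress kinase-like gene Trib3 (3.07, SE 0.10), Ddit3, which encodes the stress factor CHOP (2.35, SE 0.12), Sesn2 (1.63, SE 0.09) and Atf4 itself (0.40, SE 0.07) rose with a promoter peak in both lists. The amino acid transporter genes Slc7a5 (0.79, SE 0.06) and Slc3a2 (0.93, SE 0.07), and Lars, the leucyl-tRNA synthetase (1.11, SE 0.06), rose with a peak at the outermost start in vehicle only, but the RefSeq promoter window of Slc3a2 lay in a peak of both lists.

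RNA of the genes of cholesterol and lipid synthesis went the other way. Of 26 members, 25 were lower and none higher at an adjusted p under 0.05, against 26.3% and 28.0% of all tested genes, with a median log2 change of -1.172. Promoter peaks were in vehicle only at 12, in both lists at 5, without glutamine only at 1 and in neither at 8. Over all tested genes these shares were 17.3%, 24.7%, 3.9% and 54.1%. The 5 kept of 17 vehicle promoters (29.4%) compare with 58.8% over all tested genes with a vehicle promoter peak. The signal of the vehicle promoter peaks was 9.34 at the median for this list and 9.71 for all tested genes, and the width 2249 and 2015.5 bases. Among the 12 were Mvk, Mvd, Fdft1, Sqle, Cyp51, Msmo1, Nsdhl, Hsd17b7 and Sc5d, which are enzymes of the pathway, and Insig1, which retains the sterol-sensing machinery in the endoplasmic reticulum. By RefSeq windows 11 of the 18 members with one were in vehicle only and 4 in both lists. Windows of Insig1, Msmo1 and Mvk are shown as examples, with capitals for CCAAT on either strand, the letters bound by NF-Y, a known partner of the sterol regulatory factors.
Insig1, chr5:28071162-28071411, plus strand: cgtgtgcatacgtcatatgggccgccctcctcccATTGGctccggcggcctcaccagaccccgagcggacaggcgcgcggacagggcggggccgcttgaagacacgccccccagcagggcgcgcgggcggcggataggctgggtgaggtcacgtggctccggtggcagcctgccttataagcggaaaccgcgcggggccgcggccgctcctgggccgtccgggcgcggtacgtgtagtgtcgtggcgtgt
Msmo1, chr8:64733579-64733828, minus strand: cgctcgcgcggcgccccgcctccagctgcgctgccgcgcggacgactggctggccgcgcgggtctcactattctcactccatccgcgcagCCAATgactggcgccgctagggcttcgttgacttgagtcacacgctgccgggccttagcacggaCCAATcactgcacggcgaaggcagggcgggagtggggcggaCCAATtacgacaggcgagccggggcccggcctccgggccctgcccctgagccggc
Mvk, chr5:114444019-114444268, plus strand: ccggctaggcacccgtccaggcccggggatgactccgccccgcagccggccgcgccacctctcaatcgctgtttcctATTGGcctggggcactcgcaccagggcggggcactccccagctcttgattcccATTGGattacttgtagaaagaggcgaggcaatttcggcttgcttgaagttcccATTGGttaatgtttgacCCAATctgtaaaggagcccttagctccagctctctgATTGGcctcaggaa
CCAAT was in 8 of the 8 windows of vehicle-only members and in 4 of the 4 of members with peaks in both lists. Among members with a peak in neither list it was in 5 of the 11 windows, which came from 6 genes, 4 of them with the letters. CCAAT was in 38.5% of all vehicle-only windows and in 37.4% of all windows. CCAAT was also in 21 of the 37 windows (56.8%) of the amino acid response list, whose RNA mostly rose. The letters TCACNCCAC of the sterol regulatory element were in 1 of the 23 windows of the cholesterol list (4.35%) and in 1.24% of all windows.

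The Insig1 peak (chr5:28069813-28072079, signals 6.74 and 4.69) had no counterpart without glutamine. Insig1 RNA was 117, 121, 115 and 122 CPM in vehicle and 31.8, 29.5, 30.4 and 27.8 CPM without glutamine, and the groups lay apart, with a log2 change of -1.99 (SE 0.06, adjusted p = 8.63e-15). Outside the list, Fads2, a fatty acid desaturase, had the largest fall among the named genes with a promoter peak in vehicle only. Fads2 RNA was 101, 96.1, 109 and 115 CPM in vehicle and 1.28, 1.47, 1.09 and 1.25 CPM without glutamine (log2 change -6.37, SE 0.12, adjusted p = 4.13e-17), with a single vehicle peak over its start (chr19:10100462-10102344, signals 4.35 and 4.64). Slc25a1, which exports citrate from mitochondria for lipid synthesis, fell with a promoter peak in vehicle only (-1.27, SE 0.08). Tspan2, a tetraspanin, went from 9.66 to 16.8 CPM to 1.28 to 2.00 CPM (-2.94, SE 0.16) in the same class. Scd2, a fatty acid desaturase, ran against the pattern: its RNA fell (-1.35, SE 0.07) while a promoter peak was listed only without glutamine (chr19:44292651-44295685, signal 11.18).

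**Figure D4:**
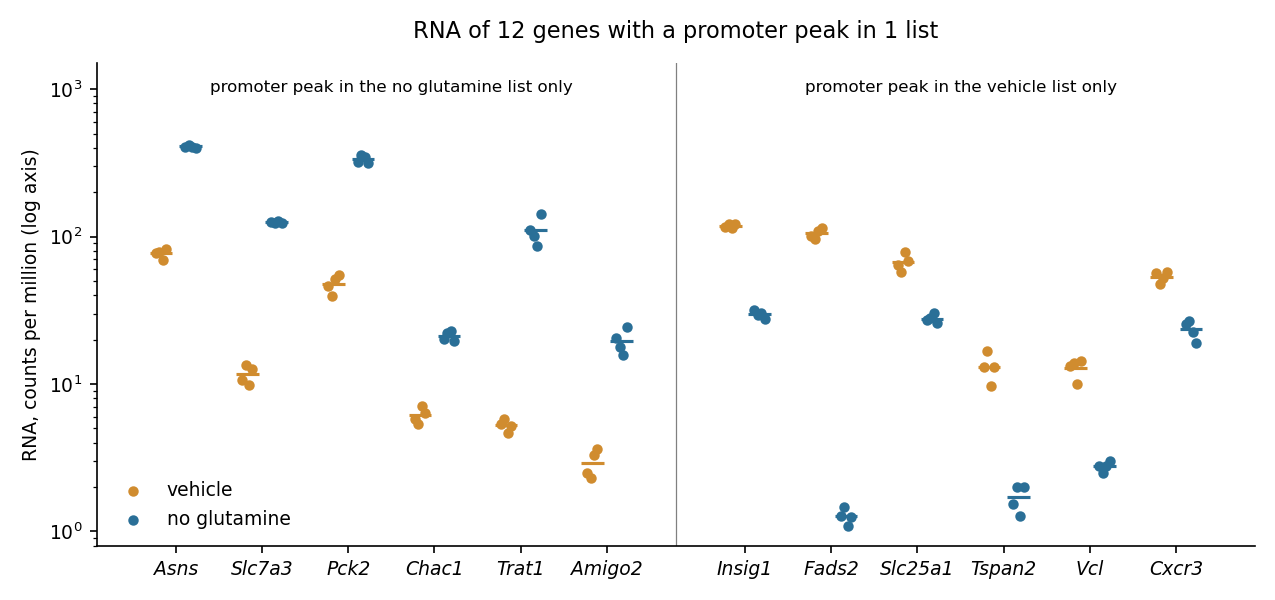
RNA level (CPM, log axis) in each of the 4 vehicle and 4 glutamine-free libraries for 6 genes with a promoter peak only without glutamine and 6 with one only in vehicle, with the mean as a line. Asns rises from 69.7 to 83.0 CPM in vehicle to 402 to 418 CPM, and Fads2 falls from 96.1 to 115 CPM to 1.09 to 1.47 CPM.

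In 5 other metabolic and growth lists most members were lower, and the share of members with a vehicle promoter peak that kept one ranged from 42.9% to 76.0%. In 2 further lists it was otherwise. Of the genes of glutamine use 11 of 24 members were higher and 8 lower, and 14 of 17 (82.4%) kept a promoter peak. Of the acetyl-CoA and H3K27 enzymes 6 of 23 were higher and 7 lower, and 9 of 15 kept one. Of the TCA cycle and respiration genes, 6 of the 14 with a vehicle promoter peak (42.9%) kept one, and 18 of 24 members were lower and 1 higher, for example Idh3a (log2 change -0.75, SE 0.07) and Mdh2 (-0.47, SE 0.08), both with a promoter peak in vehicle only. Of the nucleotide synthesis genes 10 of 19 (52.6%) were kept, and 18 of 24 members were lower and 1 higher. The 9 vehicle-only members included Atic (-0.56, SE 0.05) of purine synthesis, Cad (-0.29, SE 0.05), which starts pyrimidine synthesis from glutamine, and Rrm2 (-0.50, SE 0.05), a ribonucleotide reductase subunit. Of the DNA replication and mitosis genes 14 of 25 (56%) were kept, and 21 of 32 were lower and 2 higher, with the mitotic kinase Plk1 (-0.80, SE 0.05) in vehicle only. Of the ribosome biogenesis and MYC target genes 19 of 25 (76.0%) were kept although 27 of 32 members were lower, such as Nolc1 (-0.65, SE 0.05). Of the glycolysis and hypoxia genes 9 of 12 (75%) were kept, and 21 of 22 were lower. Pfkl, a phosphofructokinase (-1.73, SE 0.09), and Pgk1, phosphoglycerate kinase (-0.55, SE 0.06), had a promoter peak in vehicle only. The outermost start of Ldha, lactate dehydrogenase, had no peak in either list, but its RefSeq windows lay in a vehicle-only peak, and its RNA fell by 0.99 on the log2 scale (SE 0.08). Shares kept are to be read against the 58.8% of all tested genes, and shares higher and lower against 28.0% and 26.3%.

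Nearly every gene of the T cell receptor and its coreceptors with a vehicle promoter peak kept one. Of 18 such genes 17 did (94.4%, against 58.8% over all tested genes), including Cd3e, Cd3d, Cd3g, Cd8a and Lck. Neighbouring genes can share a peak, as Cd3e, Cd3d and Cd3g may, so that genes are not separate peaks. Of the 20 members 6 were higher and 8 lower, against 28.0% and 26.3% of all tested genes. These were also large peaks: the median signal of the vehicle promoter peaks was 12.52 and the width 9784.5 bases. The 7 cytokine and chemokine genes with a vehicle promoter peak all had one without glutamine too, Xcl1, Ccl3 and the neighbours Tnf, Lta and Ltb among them, and the median width of the vehicle peaks was 4009 bases. No vehicle peak had Lta or Ltb as its nearest gene. Of 23 replication-dependent histone genes, which lie in clusters that share peaks, 22 of 23 were kept, with a median width of 7462 bases. The part of peak size in these shares was not tested. Gzmb, the granzyme B protease of cytotoxic granules, kept its promoter peak (signal 8.60 in vehicle and 9.32 within the other list) although its RNA went from 4610 to 6230 CPM in vehicle to 926 to 1540 CPM (log2 change -2.07, SE 0.13). Pdcd1, which encodes PD-1, kept a promoter peak, while a vehicle peak 14380 bases away had no counterpart without glutamine. Pdcd1 RNA fell (-1.58, SE 0.07). Il7r kept its promoter peak while its RNA fell (-1.30, SE 0.10), and Ccr7 (0.77, SE 0.06) and Cd69 (0.82, SE 0.09) kept theirs while RNA rose. Ifng and Prf1 had no promoter peak in either list, and fell by 2.14 and 2.65 on the log2 scale. Il2ra, the high-affinity IL-2 receptor chain, kept a peak of 16178 bases over its start, which was 17382 bases wide without glutamine. Its RNA fell slightly (-0.27, SE 0.08, adjusted p = 0.00661), a call lost with library totals alone (-0.17, adjusted p = 0.114). Of the genes of naive and memory cells, 11 of the 16 with a vehicle promoter peak (68.8%) kept one, and 12 of 24 members were higher and 6 lower. The transcription factor genes Tcf7 (0.37, SE 0.06), Lef1 (0.52, SE 0.08) and Bach2 (0.51, SE 0.08) rose with a promoter peak in both lists, and so did Irf4, a factor of activated cells (0.50, SE 0.07). Myc, with a promoter peak in both lists, had a log2 change of -0.09 (SE 0.06, adjusted p = 0.225).

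**Figure D5:**
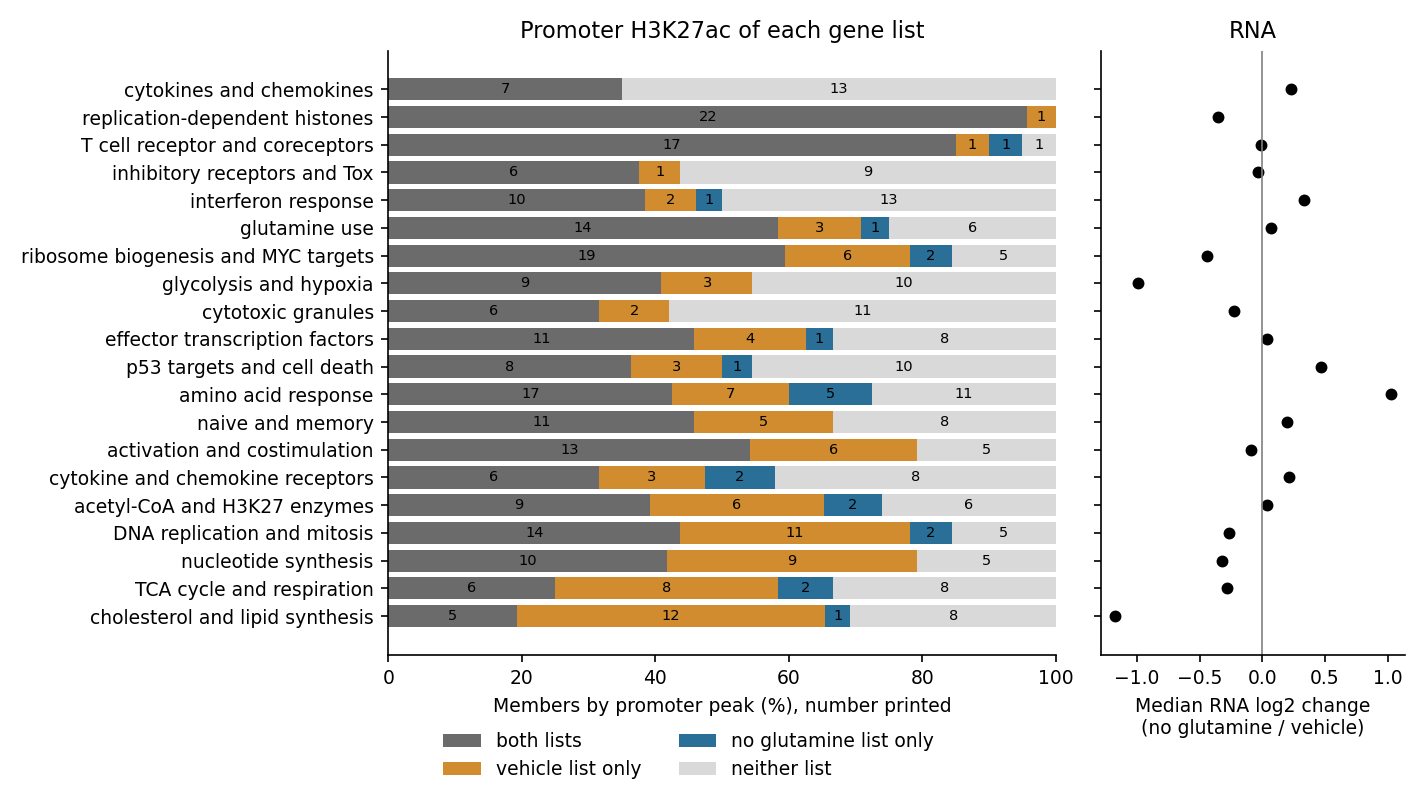
Members of 20 gene lists (percent of members, with the number printed) by H3K27ac peak at the gene start, sorted by the share of vehicle promoter peaks kept, and the median RNA log2 change of each list (right). Cholesterol and lipid synthesis keeps 5 of 17 vehicle promoters, the lowest share among these lists, with a median RNA change of -1.172.

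Effector gene lists kept most of their vehicle promoter peaks, against 58.8% kept over all tested genes. Of the effector transcription factors 11 of the 15 with a vehicle promoter peak (73.3%) kept one, of the cytotoxic granule genes 6 of 8, and of the inhibitory receptor genes 6 of 7 (85.7%). In these lists 8 of 24, 11 of 19 and 9 of 16 members had a promoter peak in neither list, against 54.1% of all tested genes. Their vehicle promoter peaks had median widths of 4074, 2943 and 2873 bases, against 2015.5 for all tested genes. The part of peak size was not tested. Single genes differed from their lists. Prdm1, which encodes the effector regulator BLIMP-1, was nearest to 3 vehicle peaks, 2 between genes and 1 in an intron, none with a counterpart without glutamine: chr10:44402462-44404947, chr10:44447422-44448902 and chr10:44708301-44709731, with signals of 9.25, 9.04 and 7.88. Its RNA was low, at 4.48, 5.61, 3.16 and 3.94 CPM in vehicle and 0.268, 0.473, 0.503 and 0.344 CPM without glutamine, a log2 change of -3.47 (SE 0.26, adjusted p = 2.71e-09). Neither vehicle peak of Cxcr3, a chemokine receptor of effector cells, had a counterpart without glutamine. The first lay over the start (chrX:101730086-101734550, signal 15.41), and Cxcr3 RNA went from 48.0 to 57.3 CPM to 19.0 to 26.9 CPM (log2 change -1.18, SE 0.09). Il2rb, a chain of the IL-2 receptor, fell (-0.90, SE 0.05) with a promoter peak in vehicle only. Ctla4 fell (-1.18, SE 0.08) and its outermost annotated start carried a vehicle-only peak (chr1:60886845-60888511), but that start, at base 60887000, lies upstream of the RefSeq start at base 60909025, whose window lay in a peak of both lists. Vehicle-only promoters were not always at genes that fell. Among them RNA rose for Relb (log2 change 1.85, SE 0.09), Rela (0.59, SE 0.05), which like Relb encodes an NF-kB subunit, Stat5a (0.56, SE 0.04) and Il15ra (1.14, SE 0.07). Sft2d2, a vesicle transport gene (1.85, SE 0.08), Klhl24 (1.78, SE 0.10) and Egr2, a factor induced by receptor signalling (1.27, SE 0.09), rose in the same class. Lgals1, which encodes galectin-1, fell (-2.06, SE 0.20), with 675, 634, 1340 and 634 CPM in vehicle A to D and 164 to 220 CPM without glutamine, so that library C lay far above the other 3. Relb RNA went from 27.4 to 39.2 CPM to 109 to 119 CPM, and its lone vehicle peak (chr7:19628276-19629961) had a low signal of 7.98, close to the list's lowest of 7.75.

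Outside the amino acid response, Trat1 and Amigo2 combined a promoter peak only without glutamine with a large rise. Trat1, an adaptor of the T cell receptor complex, had lone peaks at its start (chr16:48769970-48772345, signal 9.27) and at chr16:48796918-48800018 (12.24). Its RNA was 5.35, 5.76, 4.66 and 5.19 CPM in vehicle and 110, 101, 87.0 and 142 CPM without glutamine (log2 change 4.39, SE 0.20, adjusted p = 1.43e-11), and the groups lay far apart. Amigo2, a cell adhesion molecule, was nearest to 8 peaks without glutamine, 4 of them alone, and 4 vehicle peaks, all shared, and its RNA went from 2.29 to 3.62 CPM to 15.7 to 24.2 CPM (log2 change 2.76, SE 0.14). Il27ra, a cytokine receptor chain, rose (0.72, SE 0.06). So did Crebbp (0.55, SE 0.10), which encodes CBP, an enzyme that writes H3K27ac. Angptl6 went from 1.65 to 3.57 CPM to 24.3 to 27.2 CPM (3.42, SE 0.16), with a lone peak that began 773 bases from its outermost start. Thy1, a surface glycoprotein of T cells (-1.01, SE 0.06), and Epsti1, an interferon-induced gene (-1.33, SE 0.05), fell with a promoter peak only without glutamine, which at Thy1 began 961 bases from the start.

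H3K27ac peaks met few H3K27me3 peaks. Of the vehicle H3K27ac peaks 63 (0.651%, 0.50 to 0.83) overlapped a vehicle H3K27me3 peak, and of those without glutamine 4 (0.0598%, 0.02 to 0.15) overlapped one of their own condition. The H3K27me3 lists held 13556 peaks in vehicle and 8795 without glutamine. Set against the H3K27me3 list of the other condition, 29 vehicle H3K27ac peaks (0.3%) and 11 without glutamine (0.164%) overlapped a peak. The difference between the conditions thus depended on which H3K27me3 list was used. Lone vehicle peaks met H3K27me3 in 1.15% (0.86 to 1.52), kept vehicle peaks in 0.243% (0.13 to 0.42). With H3K27me3 over at least 50% of the H3K27ac peak, the shares were 0.227% in vehicle and 0.0% without glutamine. One of the 63 lay over the start of Vcl, which encodes the adhesion protein vinculin (chr14:20928652-20929967, signal 11.07), and Vcl RNA fell (-2.22, SE 0.11). Of the 4, 1 lay over the start of Crebbp (chr16:4212976-4214979).

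Promoter windows in peaks of either list were richer in GC than those in neither. The median GC content of the RefSeq windows was 62.3% where the peak was in vehicle only, 61.3% in both lists and 59.0% without glutamine only, against 50.3% for windows in neither list and 52.7% over all. The letters CCGGAAG of ETS factors were in 23.2%, 20.3% and 20.3% of the first 3 classes and in 5.07% of windows in neither list.

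The H3K27ac lists of the inhibitors at 48 h were much shorter. CB-839, an inhibitor of glutaminase, had 117 peaks, of which 115 met a vehicle peak and 112 a peak without glutamine. DON, a glutamine analog, had 33, of which 33 and 32 did. The cells carried the RNA of CD8+ T cells: the 10 markers of that type were all tested and held 0.3516 to 0.4035% of counts in vehicle and 0.3180 to 0.3300% without glutamine, and all 10 had promoter peaks in both lists. Cd4 had 0 to 8 counts in a library. Of 16 B cell markers 9 were tested, with 0.0527 to 0.0580% in vehicle and 0.0449 to 0.0511% without glutamine, and Ms4a1 had at most 7 counts in a library. Of the 9 tested B cell markers 2 were higher and 2 lower. Cd74, which encodes the invariant chain and is among the B cell markers, had a promoter peak only without glutamine (chr18:60802719-60804046). It rose from 13.9 to 23.0 CPM to 48.0 to 59.6 CPM (log2 change 1.58, SE 0.13). With means of 17.9 CPM in vehicle and 53.4 CPM without glutamine, Cd74 was a small part of the B cell sum, which was lower without glutamine. Myeloid markers held at most 0.0009% and erythroid markers at most 0.0003% in any of the 8 libraries. NK cell markers held 0.0077 to 0.0099% in vehicle and 0.0046 to 0.0055% without glutamine, and CD4 T cell markers 0.0413 to 0.0464% and 0.0195 to 0.0254%. The CD4 T cell sum was mostly Ctla4, with means of 421 CPM in vehicle and 186 CPM without glutamine. Of 5 CD4 T cell markers 4 were tested, 2 higher and 2 lower. The NK cell sum was mostly Klrk1, with means of 69.6 and 35.6 CPM, and 4 of 10 NK cell markers were tested. In these bulk samples fewer cells of a type and less RNA per cell cannot be told apart. The part of other cells in the peak lists was not tested.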

How the data were processed

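The members, gene lists and tests were chosen with earlier results of these data known. Each deposited H3K27ac list holds peaks merged by the authors from 2 samples, with a merged signal that equals the sum of both samples' signals and the −log10 of the IDR. Which sample is listed first is not given in the sources used here. The deposited RNA table holds integer read counts by gene from featureCounts 2.0.1 with GENCODE M25, per the file headers. Strand was not used in counting, per the same headers, while the labels' protocols name stranded libraries, so overlapping and antisense genes cannot be told apart. Bowtie2, STAR, MACS2 and mm10 stand in the submitters' processing notes. The IgG libraries were not used here.

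Peaks sharing 1 base or more were counted as overlapping (Python 3.11.15, scipy 1.17.1), with Clopper-Pearson intervals for shares. Gene starts are the outermost starts in the count table. A symbol was found for 55141 of 55487 genes, and 16173 were tested with edgeR 4.0.16 (TMM, filterByExpr, robust quasi-likelihood test, the 16 libraries of 48 h, Benjamini-Hochberg adjustment over all genes tested). CPM are TMM-scaled. The 8 RNA libraries compared held 35244078 to 48219666 counts. Vehicle library C stood apart: its counts differed from the other vehicle libraries by a chi-square per degree of freedom of 66.3 to 139, against 6.96 to 23.1 among those. The RNA and overlap scripts were tested on simulated data. Alternatives were other scalings, filters, tools, libraries, promoter windows, overlaps and IDR thresholds.

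Named genes were those nearest to the 6 strongest lone peaks of each list and the 6 strongest shared vehicle peaks, the 5 widest peaks of each list, a panel of 59 genes, up to 4 members of each gene list with a promoter peak in 1 list by adjusted p, and the 6 largest rises and falls in each of these promoter classes. Other members of the amino acid, cholesterol, T cell receptor and cytokine lists, the printed promoters and the motifs were chosen after their values were seen. Histone and receptor segment genes have near-identical copies, so their values are uncertain. Some genes that the rule names are not reported here.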

Additional observations from a re-analysis of the deposited data

Results flagged for a closer look

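Of 162 groups of 4 libraries (81 named genes in 2 conditions), 8 held a library set apart from the other 3, by a gap that took up most of the group's range under Dixon's 95% criterion. Chance alone gives about 1 in 20 groups. Vehicle library C was the one apart in 5 of them. Its Lgals1 level was 1340 CPM against 634 to 675 in the other vehicle libraries, Atf4 581 against 437 to 461, Crebbp 15.2 against 22 to 22.8, Tcf7 191 against 223 to 228 and Pgk1 190 against 202 to 203. Library D without glutamine was apart in the other 3, with Sft2d2 at 181 CPM against 146 to 149, Aldh1l2 at 46.6 against 42.8 to 43 and Plk1 at 118 against 133 in each of the others.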

How the results depend on the processing

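The planned stricter IDR of 0.01 left no peak in either list, since the highest −log10 IDR was 1.79 in vehicle and 1.73 without glutamine, so it gave no value. An IDR of 0.03, chosen after seeing the data, left 8408 and 5505 peaks. With it 46.8% of vehicle peaks and 70.4% of peaks without glutamine were overlapped, and the promoter share was 60.5% and 58.5% of all peaks and 56.5% and 40.5% of lone peaks. Equal numbers of top peaks gave 62.8% and 61.8%, and covered bases 66.2% for the list without glutamine. A window of 2500 bases gave promoter shares of 61.8% and 60.1% of all and 58.8% and 40.7% of lone peaks, and starts of tested genes only 55.5%, 53.9%, 51.8% and 32.3%. H3K27me3 over 50% of the H3K27ac peak was met by 0.227% and 0.0%.

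RNA counts of genes higher and lower stayed within 1.5 times under every alternative run. Leaving out 1 library gave 4134 to 4778 higher and 3904 to 4519 lower. The replicate letters did not pair the libraries (same-letter correlations of deviations from -0.555 to 0.47), and a replicate block gave 4381 and 4133. The shares higher and lower were 30.9 to 35.2% and 22.5 to 28.2% for promoters in both lists, and 23.5 to 28.0% and 30.2 to 35.6% for vehicle only. Scaling by library totals gave 41.6% higher and 17.4% lower for promoters in both lists, 34.7% and 24.2% for vehicle only, and 43.2% and 17.6% for no glutamine only. RefSeq promoter windows, chosen after seeing the data, gave 27.3% lower for both lists. Only 31 of 40 amino acid response and 18 of 26 cholesterol members have such a window. Among those, 4 and 3 amino acid response promoters were in vehicle only and without glutamine only, and 0 cholesterol promoters were without glutamine only. The members counted there by the outermost start but not by RefSeq without glutamine (Slc7a3, Wars and Scd2) have no window.

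Of the named genes' RNA values none changed direction. Without vehicle library C the Ets1 value of -0.18 passed the test (adjusted p = 0.00103), and with library totals Sik1 did (0.17, adjusted p = 0.0127) and Il2ra (-0.17, adjusted p = 0.114) and Arpc2 (-0.05, adjusted p = 0.402) did not. The causes of these shifts were not tested. Depth limits the peak comparison, since it is not given in the sources used here for these libraries.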
